A study of Rattus norvegicus with 9 samples.

Results

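Melanocytes are the pigment cells that the neural crest gives to skin, hair, inner ear, meninges and other sites, and 9 genes used to recognise them were examined in whole bone of the rat skull and limb. They were Mlana, Pmel, Tyr, Tyrp1, Dct, Mitf, Sox10, Gpr143 and Slc45a2, and 8 of the 9 were among the 14217 genes that the arrays measured and named. The list was chosen after the calvaria to ulna difference of Mlana had been seen on these same arrays, so the comparison of the sites is given for these genes as a description. Where the fit over all probe sets called one of them, this is counted without a p and is no test of the list. Every probe set that the platform annotation assigned to 1 of the 9 genes alone was taken. This gave 10 of 31042 probe sets, with 2 each for Tyrp1 and Mitf and 1 each for Mlana, Pmel, Tyr, Dct, Sox10 and Gpr143. Slc45a2, a transporter of the melanosome membrane, had no such probe set and was not analysed here.

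Total RNA was hybridised to 9 Affymetrix rat GeneChips, 4 from the calvaria (skull vault) and 5 from the ulna (a limb bone of the forearm). Both groups were untreated male CD rats of about 110 g, differing by skeletal site. By the study's methods, soft tissue and the sutures or epiphyses were dissected away and RNA was extracted from groups of rats, so an array stands for a pool of animals and not for 1 animal. A tissue field names the calvaria for ulna 1, 2, 3 and 4 and limb bone for ulna 5 only, whereas the titles and source names of all 5 give the ulna, and the groups follow the titles.

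Pigment is made in melanosomes, organelles related to lysosomes. Pmel forms their fibrillar matrix with the help of Mlana, the enzymes Tyr, Tyrp1 and Dct make melanin on it, and Gpr143 is a receptor in the organelle membrane. Mitf, the transcription factor at the head of the programme, also acts in osteoclasts, mast cells and the retinal pigment epithelium, and Sox10, which switches Mitf on in melanocytes, is equally a factor of Schwann cells. CD rats are an albino stock, and albino rats carry a Tyr allele whose enzyme does not work. Their melanocytes persist without pigment, so a melanocyte is expected to show as RNA and not as colour.

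Proteins of the Mitf family bind the M-box, with the core TCATGTG, which reads CACATGA on the opposite strand. RefSeq promoters (assembly GRCr8, 250 bases before to 50 bases after the annotated start) were found for 7 of the 9 genes and not for Sox10 or Slc45a2. The core, on either strand, was present in the promoters of Mlana, Tyr, Tyrp1, Dct and Gpr143. It was not in that of Pmel or in the 1 Mitf promoter of the table, which is 1 of several starts of that gene. The Pmel window, chr7:1722993-1723292, lay inside the annotated gene, which starts at 1721948 and has 3 RefSeq transcripts. Other starts of Pmel were not searched. The core was present in 1192 of all 33469 promoters, 3.56%. The shorter E-box CATGTG, with CACATG on the opposite strand, is contained in the M-box core and was found in the same 5 of the 7 promoters and in 14% of all promoters. The palindromic E-box CACGTG was found in 0 of the 7 and in 6.42% of all. The 5 matches are shown, each with 20 bases on either side, as a sequence feature of 5 of the 7 promoters. The genes were listed as pigment cell genes, of the programme that Mitf heads. The share with the core is therefore no independent support for the list. The core is in capitals.
Mlana: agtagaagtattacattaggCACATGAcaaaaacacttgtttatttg
Tyr: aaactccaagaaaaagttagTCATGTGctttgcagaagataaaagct
Tyrp1: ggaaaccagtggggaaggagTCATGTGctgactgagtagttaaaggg
Dct: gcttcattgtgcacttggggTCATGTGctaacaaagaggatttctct
Gpr143: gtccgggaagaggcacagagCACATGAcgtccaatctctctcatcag
The windows, in GRCr8, are chr1:236882851-236882897 (plus strand) for Mlana, chr1:150622952-150622998 (minus) for Tyr, chr5:100327037-100327083 (plus) for Tyrp1, chr15:101508141-101508187 (minus) for Dct and chrX:25498555-25498601 (plus) for Gpr143. The first base of the core lay 204 bases before the start in Mlana, 121 in Tyr, 68 in Tyrp1, 138 in Dct and 26 in Gpr143. In Mlana and Gpr143 the core runs on the strand opposite to the gene. A match describes these letters in this window and is not evidence of binding.

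Signals are MAS5 intensities on a linear scale, scaled so that every array had a median of 33.82 (33.01 to 36.59 before scaling). Background was read from 3 control probe sets for the Bacillus subtilis Trpn sequence, which was not in the samples. Their 27 values ran from 0.337 to 8.34 with a median of 0.946, and 8.34 is called the level of absent controls here. That level is not an upper limit for genes that bone should lack. Over 18 probe sets of photoreceptor and lens genes the median signal was 4.26, the 90th percentile 39 and the highest 62 (Bfsp2, a lens filament gene, on ulna 2), and 5 of the 18 had an overall mean above 8.34. Whether such signals come from hybridisation of other transcripts was not tested. Levels of different probe sets depend on their probes, so they are set beside these backgrounds and rank no gene against another. Differences are log2 calvaria minus ulna from signals floored at 2.51, each with its standard error (SE). A probe set was called when the difference was at least 2-fold and the limma p, adjusted over all 31042 probe sets, was below 0.05.

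Mlana and Mitf stood apart between the sites, and the other 6 measured genes did not. Of the 10 probe sets 3 were called higher in the calvaria and 0 lower, where 2.89% of all probe sets were called higher and 3.36% lower. By gene, with the brightest probe set of each, Mlana and Mitf were 2 of 8 called higher, beside 3.47% of all genes called higher and 4.31% lower. Every calvaria array lay above every ulna array for 2 of the 10 probe sets, 1 of Mlana and 1 of Mitf, as for 9.53% of all probe sets. The median difference of the 8 genes was 0.45, beside -0.02 over all genes. The list was chosen on this contrast, so nothing is read from these shares or from the median. In whole bone, fewer cells of a type and less RNA per cell cannot be told apart.

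**Figure D1:**
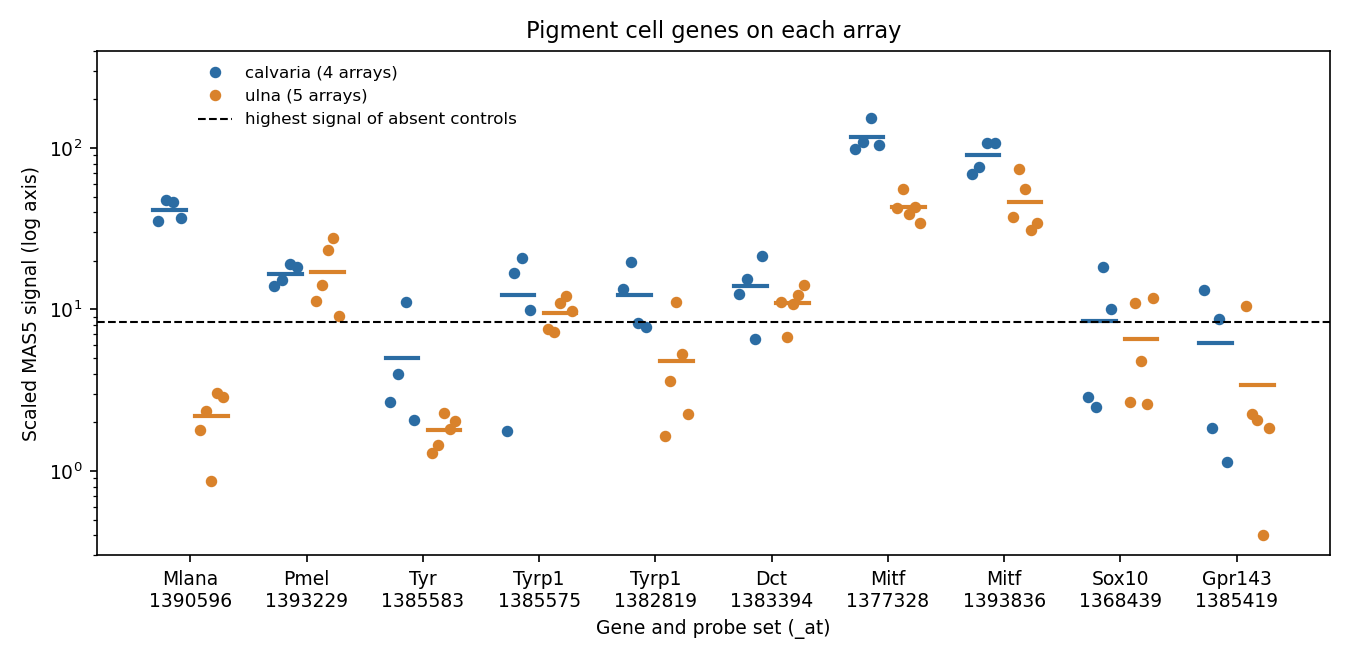
Scaled MAS5 signal (log axis) of each of the 10 probe sets, 1 point per array, with calvaria on the left and ulna on the right of each pair and a bar at the mean of the site. The dashed line is the highest signal of absent controls, 8.34. Mlana and Mitf 1377328_at show no overlap between the sites, and the ulna signals of Mlana lie below the dashed line.

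Mlana, the melanosome protein also known as MART-1, gave signals of 35.5, 47.3, 46.4 and 36.7 in calvaria 1 to 4, against 1.79, 2.36, 0.868, 3.02 and 2.85 in ulna 1 to 5. All 4 calvaria arrays were above the level of absent controls and all 5 ulna arrays below it. The mean was 41.5 ± 6.22 in the calvaria (SD, n = 4) and 2.18 ± 0.873 in the ulna (SD, n = 5), an S:L ratio (mean skull signal over mean limb signal) of 19.1. The difference was 3.94 ± 0.19. Its size is not resolved, because the ulna signal was at background and at the floor on 3 of 5 arrays. Against the level of absent controls, the mean calvaria signal was 4.97 times as high. The calvaria signal was moderate, on average at percentile 53.8 of all probe sets of an array against 8.51 in the ulna, and its mean lay between the 90th percentile and the highest signal of the photoreceptor and lens genes. Mlana rests on 1 probe set, 1390596_at, and what else its probes may bind was not tested.

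Pmel, the partner of Mlana in the melanosome matrix, did not share its pattern. Its signals were 13.9, 15.3, 19.0 and 18.3 in the calvaria, against 11.2, 14.2, 23.2, 27.7 and 9.1 in the ulna. The ulna range enclosed the calvaria range. The mean was 16.6 ± 2.42 in the calvaria and 17.1 ± 8.0 in the ulna, and the difference was 0.08 ± 0.36, so the ratio of means (0.972) and the log2 difference have opposite signs and both are small against their error. All 9 Pmel signals exceeded the level of absent controls, yet both means were below the 90th percentile of the photoreceptor and lens genes.

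The 3 enzymes were dim at both sites. Tyr, the enzyme that starts melanin synthesis, gave 2.69, 4.01, 11.1 and 2.08 in the calvaria, against 1.3, 1.44, 2.29, 1.82 and 2.05 in the ulna. Calvaria 3 alone was above the level of absent controls, and all 5 ulna arrays were at the floor. The lowest calvaria array, 2.08, lay below the highest ulna array, 2.29. The mean was 4.97 ± 4.15 in the calvaria and 1.78 ± 0.412 in the ulna, both below the level of absent controls, and the difference was 0.73 ± 0.39.

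Tyrp1, which acts on a later intermediate of melanin, was read by 2 probe sets that did not give the same picture. Probe set 1382819_at gave 13.4, 19.7, 8.3 and 7.74 in the calvaria, against 1.64, 3.58, 11.1, 5.26 and 2.24 in the ulna. Ulna 3 lay above calvaria 3 and 4, and the other 4 ulna arrays lay below every calvaria array. The difference was 1.44 ± 0.50 and was not called, with 2 of 5 ulna arrays at the floor. Leaving out ulna 3 made it 1.79 ± 0.38, which was called. With the floor at the 25th percentile it was 0.32 ± 0.20, and with 16 added to the signal 0.44 ± 0.16, neither called. Probe set 1385575_at gave 1.77, 16.7, 20.9 and 9.9 in the calvaria, against 7.52, 7.25, 10.9, 12.1 and 9.74 in the ulna. Its lowest and its highest signals were both in the calvaria, and the difference was 0.05 ± 0.58.

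Dct, the tautomerase of the pathway and an early marker of melanoblasts, gave 12.5, 15.5, 6.54 and 21.5 in the calvaria, against 11.1, 6.74, 10.8, 12.3 and 14.1 in the ulna. The groups overlapped, with the lowest signal and the highest both in the calvaria. The mean was 14 ± 6.25 in the calvaria and 11 ± 2.73 in the ulna, and the difference was 0.26 ± 0.38. Gpr143, the receptor altered in ocular albinism, gave 13.1, 1.85, 8.77 and 1.14 in the calvaria, against 10.5, 2.25, 2.06, 0.399 and 1.85 in the ulna. It exceeded the level of absent controls on 2 of 4 calvaria arrays and 1 of 5 ulna arrays, and the groups overlapped (0.63 ± 0.64). Of the 5 genes with an M-box core in the promoter, 4 were dim with overlapping groups and Mlana was not.

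The transcription factors differed from each other. Sox10 gave 2.88, 2.48, 18.3 and 10.1 in the calvaria, against 2.66, 11, 4.79, 2.59 and 11.7 in the ulna. Arrays above the level of absent controls were found at both sites, 2 of 4 in the calvaria and 2 of 5 in the ulna. The difference was 0.19 ± 0.73, and this error would leave even a 2-fold difference unresolved.

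Mitf was measured well above the level of absent controls. Its probe set 1377328_at gave 98.4, 109, 154 and 105 in the calvaria, against 42.3, 55.9, 39.2, 43.0 and 34.2 in the ulna. The groups did not overlap, and calvaria 3 was the highest array. The mean was 116 ± 25.4 in the calvaria and 42.9 ± 8.05 in the ulna, an S:L ratio of 2.71 and a difference of 1.43 ± 0.17. Probe set 1393836_at gave 69.0, 76.5, 108 and 107 in the calvaria, against 37.1, 74.4, 55.8, 30.9 and 34.5 in the ulna. Here ulna 2 lay above calvaria 1, and the difference of 1.01 ± 0.28 was called by a narrow margin. It was no longer called without any 1 of calvaria 2 (1.08), calvaria 3 (0.91), calvaria 4 (0.92), ulna 1 (0.95), ulna 4 (0.88) or ulna 5 (0.92). Mitf is thus measured at both sites and, unlike Mlana, is above the level of absent controls on all 9 arrays with both probe sets. RefSeq lists 11 transcripts of Mitf, a gene with several promoters used by different cell types. Which of these transcripts each probe set reads was not analysed here.

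**Figure D2:**
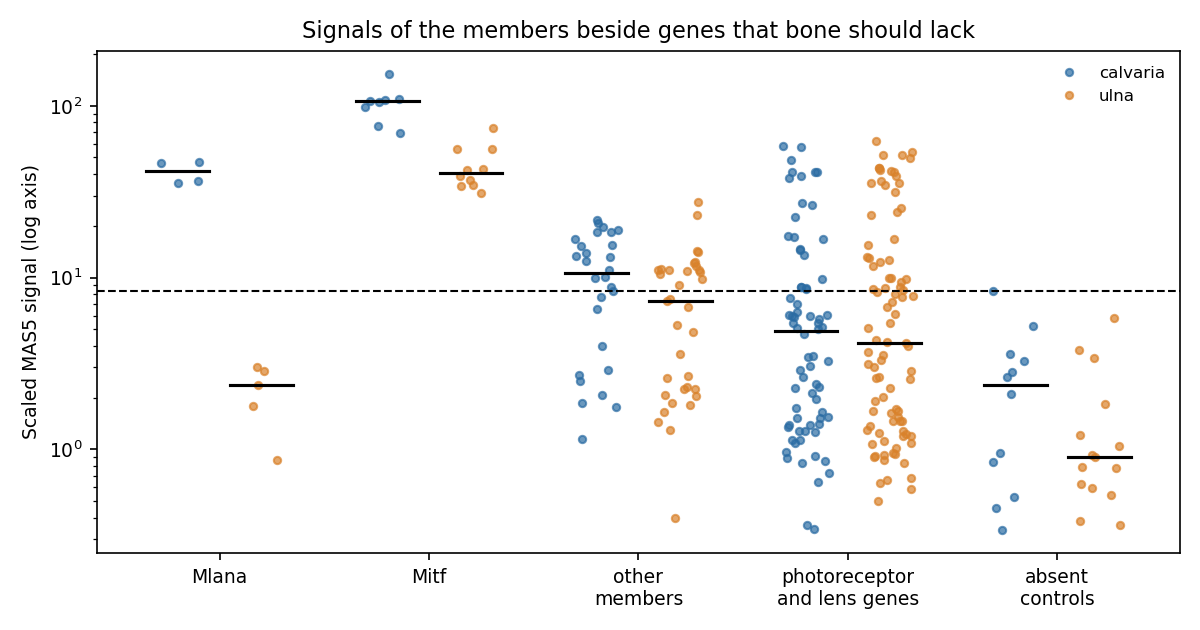
Scaled MAS5 signal (log axis) by array and probe set, calvaria left and ulna right in each pair, for Mlana, Mitf, the other 6 measured genes, photoreceptor and lens genes, and absent controls, with a bar at the median. The dashed line is 8.34. The calvaria signals of Mlana, 35.5 to 47.3, lie inside the range of signals that photoreceptor and lens genes gave, whose highest is 62, and levels of different probe sets are not ranked by this plot.

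As labelled, the list is one of pigment cell genes in the calvaria. Higher signals in the calvaria were those of Mlana, whose difference chose the list, and of Mitf, which other cells use too. No such separation was seen for Pmel, Tyr, Tyrp1 1385575_at, Dct, Sox10 or Gpr143, whose signals were near background or overlapped between the sites. Tyrp1 1382819_at lay between, with 1 ulna array inside the calvaria range. Over the 9 arrays, the floored log2 signal of Mlana had a Pearson correlation of 0.95 with Mitf 1377328_at, 0.76 with Mitf 1393836_at, 0.72 with Tyrp1 1382819_at and 0.58 with Tyr. The other probe sets lay between 0.09 (Pmel, Sox10 and Tyrp1 1385575_at) and 0.30 (Gpr143). The arrays fall into 2 sites and share their processing, so these correlations mostly restate the difference between the sites.

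By the same measure, the 10 genes most like Mlana among 12237 candidates were Pla2g5 (r = 0.997), P4ha2 (0.994), Cdh2, P3h1 and Plxnb2 (0.993 each), Abi3, Epb41l2 and Pcdh19 (0.992 each), and Cadm1 and Fam171a1 (0.991 each), over the 9 arrays. None is a gene of melanin synthesis. P4ha2 and P3h1 hydroxylate proline in collagen, and Cdh2 (N-cadherin) and Cadm1 are adhesion molecules. All 10 had calvaria arrays wholly above ulna arrays, and 9 were called (Epb41l2, at 0.92 ± 0.07, was short of 2-fold). Over all probe sets 9.53% were separated in this way, and 3.47% of all genes were called higher. Mlana is itself split by site, so choosing genes by correlation with it leads to both counts, and nothing is read from them. Unlike Mlana, all were well measured at both sites. P4ha2, for instance, gave 522 to 597 in the calvaria, against 184 to 220 in the ulna.

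A further list held 20 genes of melanocyte signalling, transport and development beside the 9, of which 13 were measured. None was called in either direction, where 3.47% of all genes were called higher and 4.31% lower, and their median difference was 0.02. By limma 2 of the 13 had an unadjusted p below 0.05 and the methods' t-test also called 0. Those 2 genes passed the adjusted threshold as higher while short of 2-fold. At any fold, 12.9% of all genes passed it as higher and 16.6% as lower. Kitlg, the growth factor that melanocytes and mast cells need, averaged 184 ± 13.8 in the calvaria and 154 ± 8.88 in the ulna (0.26 ± 0.07, limma adjusted p = 0.0227). Atp7a, the copper pump that loads tyrosinase, averaged 201 ± 18.7 in the calvaria and 157 ± 16.6 in the ulna (0.36 ± 0.10, limma adjusted p = 0.0243). These are the brightest probe sets of Kitlg and Atp7a. Other probe sets gave -0.03 ± 0.16, 0.26 ± 0.27 and 0.53 ± 0.26 for Kitlg, and -0.19 ± 0.45 and -0.01 ± 0.34 for Atp7a, none called. Both sites overlapped for Tpcn2, a melanosome ion channel, at 37 to 40.8 in the calvaria and 23.9 to 41.5 in the ulna. Kit, the receptor of Kitlg and named here after its values were seen, averaged 16.3 in the calvaria and 17.7 in the ulna (-0.11 ± 0.28). Among the 7 entries not measured were Oca2, Slc24a5, Mc1r, Ednrb and Pax3.

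Genes that shape and carry melanosomes, lysosomes and related granules in many cell types gave a mixed picture. Of 22 entries 20 were measured, 2 were called higher and 0 lower, and the median difference was -0.04. Over all genes, 3.47% were called higher and 4.31% lower. Gpnmb, a glycoprotein related to Pmel that melanocytes, osteoclasts and macrophages express, gave 1800, 2310, 2750 and 2290 in the calvaria, against 735, 544, 512, 705 and 511 in the ulna. The groups were far apart (1.93 ± 0.16, limma adjusted p = 6.58e-05). Rab38, a small GTPase that delivers tyrosinase and Tyrp1 to melanosomes, gave 249, 306, 330 and 224 in the calvaria, against 126, 125, 105, 141 and 144 in the ulna (1.10 ± 0.13, limma adjusted p = 0.000464). Those of greatest signal besides Gpnmb were Ap3d1 and Bloc1s2, subunits of cargo sorting complexes, with differences of -0.05 ± 0.06 and -0.26 ± 0.14, neither called. At any fold, 5 of the 20 were higher and 5 lower at the adjusted threshold, which 12.9% of all genes passed as higher and 16.6% as lower. One of the lower was Rab27a, which tethers mature melanosomes and other secretory granules and is named here after its values were seen, with 199 to 250 in the calvaria, against 346 to 400 in the ulna (-0.70 ± 0.07, limma adjusted p = 0.000214). That is its brightest probe set, and of its other 2 probe sets 1 was called lower, with 32.4 to 56.7 in the calvaria, against 69.2 to 98.5 in the ulna (-1.03 ± 0.19, limma adjusted p = 0.00427).

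**Figure D3:**
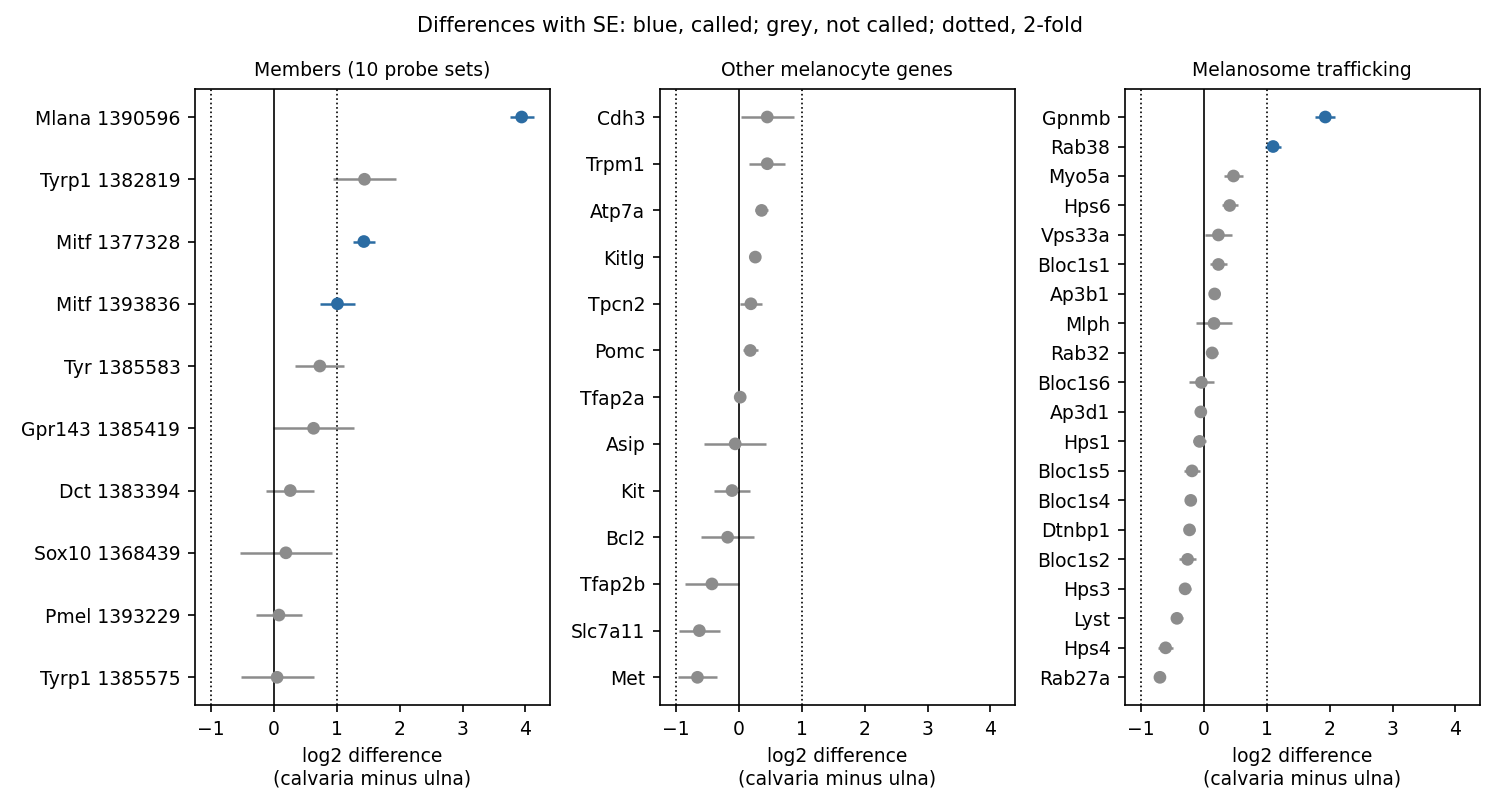
Log2 difference, calvaria minus ulna, with SE, for the 10 probe sets of the pigment cell genes (left), 13 other melanocyte genes (middle) and 20 trafficking genes (right), called ones in blue. Dotted lines mark 2-fold. Mlana is drawn at 3.94 with its ulna signals at background, a size that is not resolved, and the points of the middle panel all lie inside the dotted lines.

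Osteoclasts and mast cells also use Mitf, and part of their markers differed between the same arrays. Of the osteoclast markers, 10 of 16 were measured, 6 were called higher and 0 lower, and the median difference was 1.40. Their summed signal was 11200 to 16000 in the calvaria, against 5120 to 6110 in the ulna. The counts of this list and of the marker lists below stand beside 3.47% of all genes called higher and 4.31% lower. Mmp9, a matrix protease of osteoclasts, averaged 1500 ± 272 in the calvaria and 490 ± 38.7 in the ulna (1.60 ± 0.12, limma adjusted p = 4.5e-05). Acp5, the tartrate-resistant acid phosphatase, averaged 4680 ± 704 in the calvaria and 1420 ± 178 in the ulna (1.71 ± 0.13). Ctsk, cathepsin K, averaged 4510 ± 754 in the calvaria and 1660 ± 171 in the ulna (1.43 ± 0.13). The study listed Mitf, Gpnmb, Acp5, Ctsk, Mmp9 and Calcr on these samples, so the lists that hold them are not independent evidence of their direction.

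Within the calvaria, Mitf 1377328_at, Gpnmb and 4 of the 10 osteoclast genes (Acp5, Ctsk, Mmp9 and Tnfrsf11a) ranked the arrays alike, with calvaria 3 highest, then 2, 4 and 1. The other 6 osteoclast genes ranked them otherwise, among them Nfatc1 and Clcn7 with calvaria 3 lowest, and Mitf 1393836_at had calvaria 4 above calvaria 2. Relative to the ulna mean, calvaria 1 to 4 were at 2.29, 2.54, 3.59 and 2.45 for Mitf 1377328_at and at 2.76, 3.3, 3.95 and 3.14 for Acp5. Mlana ranked them otherwise, with calvaria 2 highest, then 3, 4 and 1. With 4 arrays such orders are a description only.

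**Figure D4:**
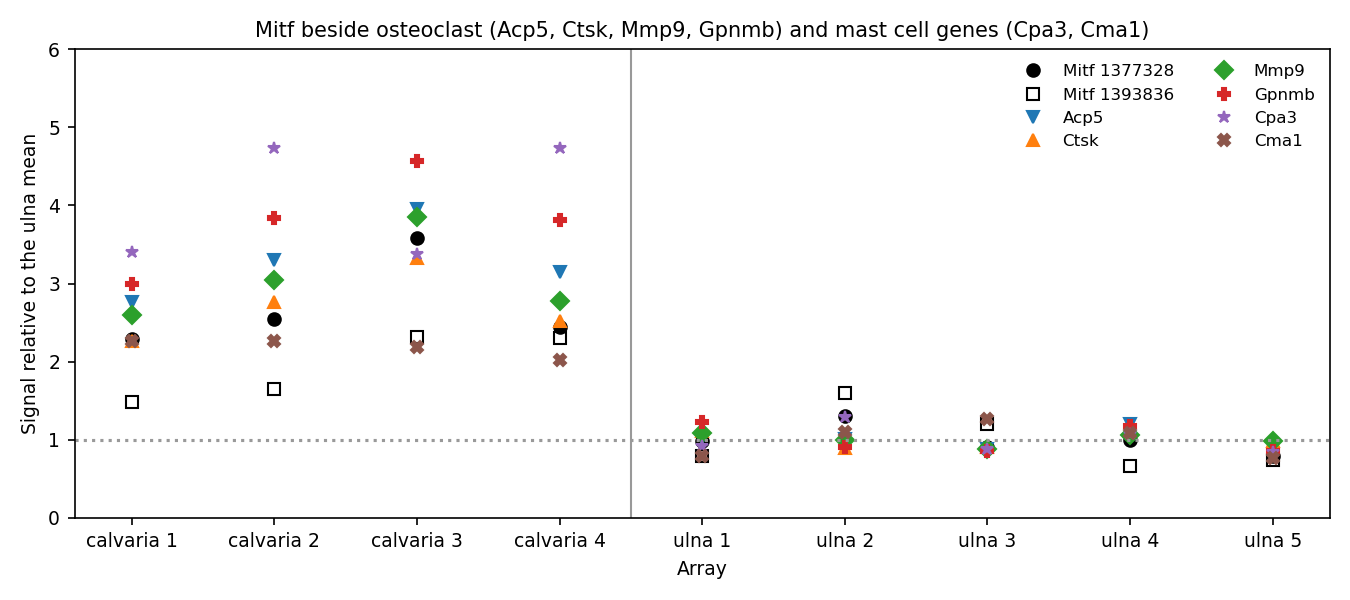
Signal of each array divided by the mean signal of the 5 ulna arrays, for both Mitf probe sets, osteoclast genes (Acp5, Ctsk, Mmp9 and Gpnmb, of which Gpnmb comes from the trafficking list) and mast cell genes (Cpa3 and Cma1), with the calvaria arrays on the left. The dotted line is the ulna mean. Mitf 1377328_at is highest on calvaria 3, at 3.59, as are Acp5, Ctsk, Mmp9 and Gpnmb, which are shown by name and not for all 10 osteoclast genes, and Cpa3 is not.

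Of the mast cell markers, 9 of 10 were measured, 4 were called higher and 0 lower, and the median difference was 0.24, with summed signals of 745 to 1010 in the calvaria, against 443 to 555 in the ulna. The protease Cpa3 gave 181, 252, 180 and 252 in the calvaria, against 48.7, 68.6, 46.7, 57.1 and 45.2 in the ulna (2.02 ± 0.16, limma adjusted p = 6.5e-05). The chymase Cma1 averaged 199 ± 10.1 in the calvaria and 91.0 ± 19.5 in the ulna, and the tryptase Tpsb2 90.7 ± 28.8 in the calvaria and 29.0 ± 5.99 in the ulna. Ms4a2, a chain of the IgE receptor named here after its values were seen, was lower in the calvaria (-0.86 ± 0.12) while short of 2-fold. The part that osteoclast or mast cell RNA has in the Mitf, Gpnmb and Rab38 differences was not tested. The relatives of Mitf, added after values were seen, were all measured and none was called. Their brightest probe sets gave 0.29 ± 0.18 for Tfe3, 0.29 ± 0.19 for Tfeb and -0.44 ± 0.17 for Tfec. Another Tfec probe set had the opposite sign, averaging 18.3 in the calvaria and 9.94 in the ulna (0.85 ± 0.28, not called). The direction of Tfec is therefore not settled. Other Tfe3 probe sets gave 0.52 ± 0.37 and -0.72 ± 0.76, neither called.

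Nerve, meninges and skin hold melanocytes or Sox10 positive cells. Of the Schwann cell markers 15 of 18 were measured, 2 were called higher and 1 lower, and the median difference was 0.14. The sums were 1080 to 1200 in the calvaria, against 883 to 1020 in the ulna. Of these, Pmp22 alone gave 581 to 675 in the calvaria and 291 to 449 in the ulna. S100b, which melanocytes and cartilage cells also express, averaged 139 ± 11.8 in the calvaria and 58.4 ± 13.4 in the ulna (1.28 ± 0.17). Ngfr averaged 13.2 ± 3.1 in the calvaria and 4.15 ± 3.36 in the ulna (1.70 ± 0.43). In the ulna Ngfr exceeded the level of absent controls on 1 of 5 arrays and was at the floor on 2, so its size is not resolved. Mbp, of myelin, was lower by its brightest probe set 1383479_at (-1.43 ± 0.12) and higher by 1368810_a_at (1.08 ± 0.18), so its direction is not settled. Foxd3 and Sox2, which mark crest derived precursors, were near background at both sites (Foxd3 at 0.737 in the calvaria and 1.174 in the ulna on average). Of the meningeal markers 15 of 16 were measured and 1 was called, Ptgds (2.25 ± 0.53, limma adjusted p = 0.0156). Its signals were 45.0, 10.4, 14.8 and 5.71 in the calvaria, against 0.759, 0.954, 1.03, 4.55 and 3.22 in the ulna. No ulna array of Ptgds exceeded the level of absent controls and 3 of 5 were at the floor, so this size is not resolved either. The median of the meningeal list was 0.25, and the sums were 1160 to 1700 in the calvaria and 1040 to 1600 in the ulna. Most of these sums was 1 gene, Mgp, at 978 to 1490 in the calvaria and 863 to 1430 in the ulna.

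Keratinocyte markers, a guide to attached skin, were measured for 12 of 18, with 0 called higher and 1 lower (Cdh1, 45.1 ± 16.1 in the calvaria and 123 ± 13.2 in the ulna), a median of 0.15 and sums of 187 to 225 in the calvaria, against 217 to 315 in the ulna. Of the retinal pigment epithelium markers 8 of 10 were measured and 0 were called by limma, with 0 at an unadjusted p below 0.05, a median of -0.04 and sums of 106 to 128 in the calvaria, against 101 to 148 in the ulna. Bmp7 and Ttr, its brightest, averaged 53.9 and 24.8 in the calvaria, against 55.4 and 27.1 in the ulna. Of the photoreceptor and lens genes 17 of 20 were measured, 0 were called higher and 2 lower (Bfsp2, -1.22 ± 0.16, and Sag, -1.48 ± 0.45), with a median of 0 and sums of 169 to 195 in the calvaria, against 201 to 212 in the ulna. The part of any of these tissues in the Mlana signal was not tested.

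The sites differed widely in other cells as well. Of the muscle markers 13 of 14 measured were called lower in the calvaria, with sums of 692 to 797 in the calvaria, against 9770 to 24200 in the ulna and a median of -6.25 (Atp2a1, Acta1 and Myl1 foremost). Of the erythroid markers 9 of 11 were called lower, with sums of 15000 to 15500 in the calvaria, against 21500 to 28000 in the ulna and a median of -1.37 (Klf1, Hemgn and Gata1 foremost). The 3' to 5' ratio of beta-actin, a measure of RNA integrity, was 1.68 to 2.05 in the calvaria and 1.49 to 1.81 in the ulna, and that of GAPDH 1.21 to 1.51 in the calvaria and 1.16 to 1.29 in the ulna. The bone matrix genes Bglap and Dmp1 had mean signals of 7555 and 2741 in the calvaria, against 6643 and 1924 in the ulna. Hoxa9, a patterning gene of the forelimb that bears on the tissue field of ulna 1 to 4, gave 2.17, 4.8, 1.82 and 2.45 in calvaria 1 to 4, against 69.1, 77.7, 61.7, 79 and 60.4 in ulna 1 to 5. Set against ulna 5 alone, the array with limb bone in that field, the differences were 3.85 for Mlana, 1.74 for Mitf 1377328_at, 1.36 for Mitf 1393836_at and 0.86 for Pmel, as values without a test.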

How the data were processed

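Total RNA of whole calvaria (4 arrays) and ulna (5 arrays) of male CD rats was measured on Affymetrix arrays. The deposited values are intensities: for each array the authors computed linear MAS5 signals, 1 for a probe set, and scaled them per array (software version not given in the sources used here). The members and gene lists were chosen with earlier results of these data known.

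Here, 57 control probe sets were set aside and 31042 tested. Of these, 20826 had 1 gene symbol in the platform annotation, 436 several and 9780 none, and 20758 were matched by gene ID to RefSeq (GRCr8) for names. Each array was divided by its median and multiplied by the mean of the medians, floored at the 10th percentile (2.51) and log2 transformed. The floor makes differences of genes that reach it too small. The sites were compared by limma 3.58.1 (R 4.3.3; lmFit, eBayes with an intensity trend), two-sided, with Benjamini-Hochberg adjustment over all probe sets. Probe sets were called at adjusted p below 0.05 and a log2 difference of at least 1. A gene was represented by whichever of its probe sets was brightest in mean log2 signal. The fit was tested on simulated data, with changes placed only in probe sets brighter than Mlana was at either site. That test does not cover signals near background. Extracts were pools of rats, so p-values measure the spread between these pools. The number of arrays limits the precision.

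All probe sets of the 9 genes were named. Of the other melanocyte and trafficking lists every called gene and the 3 of highest signal were named, and of each marker list (Schwann cell, osteoclast, mast cell, keratinocyte, meninges, retinal pigment epithelium, photoreceptor and lens, muscle, erythroid) the 3 with the smallest adjusted p among those called, or the 2 of highest signal. The 10 genes closest to Mlana by Pearson correlation were named as well. Genes named besides these were chosen after their values were seen. Alternatives were another floor (25th percentile), log2(signal + 16), no median scaling, quantile normalization and a filter at the level of absent controls. Others were no intensity trend, an unpaired t-test, a replicate block, each array left out, and, added after seeing the data, ulna 5 alone.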

Additional observations from a re-analysis of the deposited data

Results flagged for a closer look

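In 76 groups of 4 or 5 arrays, taken over the genes named, 3 arrays lay far from the rest of their group by Dixon's criterion, and chance alone gives about 1 in 20 groups. Gpr143 on ulna 1 had a signal of 10.5, with the other 4 ulna arrays at 0.399 to 2.25, a gap of 0.816 of the range of the group. Mbp 1383479_at had its lowest calvaria signal on calvaria 4, at 95.2, with the other 3 at 118 to 120 (0.928 of the range). Hemgn, an erythroid gene, had its highest calvaria signal on calvaria 1, at 751, with the other 3 at 581 to 602 (0.878 of the range). None of the 3 belongs to Mlana or Mitf.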

How the results depend on the processing

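Over all probe sets, 1938 were called, and adding 16 to the signal in place of the floor gave 1032 (437 higher, 595 lower), as the added value shrinks the differences of dim genes by construction. Leaving out each array in turn gave 1716 to 2045. The 3 pigment cell probe sets called became 2 to 4, the other melanocyte genes stayed at 0 and the trafficking genes at 2 called in every alternative run. As a description, since the list was chosen on this contrast, Mlana and Mitf 1377328_at were called in 18 of 18 settings. The difference of Mlana depended on the treatment of dim signals, at 2.04 with the floor at the 25th percentile and 1.66 with 16 added, within 1.66 to 4.01 overall. That of Mitf 1377328_at was 1.16 to 1.54. Mitf 1393836_at was called in 9 of 18 settings, and was not called with 16 added (0.79), by the unpaired t-test (1.01) or with the replicate block (0.92). Tyrp1 1382819_at was called in 1 of 17, and its difference ran from 0.32 to 1.79. Pmel (-0.12 to 0.28), Tyrp1 1385575_at (-0.32 to 0.70) and Sox10 (-0.35 to 0.61) took both signs. Against ulna 5 alone, Dct (-0.14), Sox10 (-0.95) and Tyrp1 1385575_at (-0.01) were below 0.

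Calvaria and ulna samples share the numbers 1 to 4. Samples of the same number had correlations of deviations of 0.04, -0.01, -0.01 and 0.04, so no pairing by number was detected. With 4 numbers, these values cannot decide whether calvaria and ulna samples of the same number came from the same rats. The study's methods describe 5 groups of 4 rats for the skull and limb RNA, and do not say which array belongs to which group. Only 4 calvaria arrays were available here. Samples 1 and 4 correlated best with their own number and samples 2 and 3 did not. With the replicate block, which leaves out ulna 5, 1571 probe sets were called (733 higher, 838 lower).

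The limits are those of 9 pooled arrays. Signals under 8.34 cannot be told from absent sequences. Among the pigment cell genes this covers both means of Tyr and Gpr143 and the ulna means of Mlana, Tyrp1 1382819_at and Sox10. Among the Schwann cell and meningeal markers called, it covers the ulna means of Ngfr and Ptgds. The errors of Sox10, Gpr143, Tyr, Dct and both Tyrp1 probe sets leave a 2-fold difference unresolved.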
